A study of Homo sapiens with 8 samples.

Results

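The genes described here are 36 established transcriptional targets of the tumor suppressor p53, followed in HCT116, a human colorectal cancer cell line. They were chosen by name, as all probes of the array design that carry the symbol of one of these genes. They are 36 of the 36337 gene names on the array and are represented by 51 of its 50599 distinct probes. Testing required a signal well above background in both clones of any 1 condition, which held for 49 of the 51 probes and for 35 of the 36 genes. Of these 35 genes, 33 were above background on all 8 arrays; SPATA18 and IGFBP3 were so on 5 arrays each and entered the test through the conditions in which they were high. EDA2R, a receptor of the TNF receptor family, was left untested because each of its 2 probes was above background on only 2 of the 8 arrays.

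Expression was compared over 4 conditions, with 2 clones in each. CONT1 and CONT2 were clones stably transfected with a negative control plasmid, and TET1-KD1 and TET1-KD2 were clones stably expressing the artificial miRNAs miTET1-1 and miTET1-2 against *TET1*, which encodes an enzyme that oxidizes 5-methylcytosine. Each of the 4 clones was analyzed untreated and after 72 h with 1 µM 5-aza-dC, a cytidine analog and inhibitor of the DNA methyltransferases, with drug and medium replaced every 24 h. All 4 clones carry a stably integrated plasmid and had been selected with G418 at 0.6 mg/ml. One array was run for each clone and treatment. Every line is a single clone, so p-values measure the spread between 2 clones of a kind and take in clonal differences, and the knockdown clones also differ in the miRNA they carry. Treatments follow the array titles; another field of the labels contradicts them, since it follows the kind of clone, with mock for every control array and 5-aza-dC for every knockdown array.

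p53 is a transcription factor that is kept at a low level by the ubiquitin ligase MDM2 and accumulates when DNA is damaged or replication is disturbed. It binds pairs of a 10-base consensus motif and turns on genes that stop the cell cycle, start apoptosis, repair DNA and restrain p53 itself. 5-aza-dC is incorporated into DNA, where it traps DNA methyltransferases, so it can act on these genes through DNA damage as well as through the methylation of their promoters.

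The layout of the slides bears on every result below. The 4 untreated arrays and both treated knockdown arrays lay on 1 slide, whereas both treated control arrays lay on a second slide that was scanned 230 days later. The effect of 5-aza-dC in the control clones, and any difference between the kinds of clone in that effect, therefore cannot be told apart from the slide. The effect in the knockdown clones and the untreated comparison lie within 1 slide. All values below are log2 signals, meaning log2 of the background-subtracted intensity after every array was scaled to the same 75th percentile, and differences are log2 differences. Spike-in transcripts, which are added to each sample before labeling, show how the second slide read. On this scale, in the treated minus untreated control arrays, the spike-in with an untreated signal of 9.37 read 0.68 lower (-0.68), the one at 7.87 read -0.64, the one at 11.09 read -0.23, and the ones at 13.24, 15.26, 16.45 and 18.07 read 0.02, 0.07, 0.15 and 0.29 higher. Across the knockdown arrays the 8 brightest spike-ins differed by -0.11 to 0.01. The 75th percentiles were 395.5 and 476.1 on the second slide and 546.3 to 623.7 on the first, and 29490 to 34276 spots per array were well above background.

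*TET1* itself read 9.70 and 9.75 in untreated CONT1 and CONT2, and 8.65 and 9.41 in untreated TET1-KD1 and TET1-KD2, on its brightest probe. The knockdown clones lay below both control clones on all 3 *TET1* probes, but the difference of -0.69 on the brightest one did not pass the limma test (adjusted p = 0.610). The other probes gave -0.98 and -2.14 and did not pass either, the last being above background in the untreated control clones only. Over all genes 0.0195% passed in this comparison. By RT-qPCR, the paper reports reduced *TET1* mRNA in both knockdown clones, more so in TET1-KD1. Of the epithelial markers, the keratins KRT19, KRT18 and KRT8 and the adhesion molecule EPCAM read 13.22 or higher on all arrays, and KRT19, between 17.36 and 17.76, makes up most of the summed epithelial signal of 18.32 to 18.59. The intestinal marker CDX1 read 7.29 to 8.74, whereas LGALS4 read 4.02 to 4.73 untreated and VIL1 was above background on 2 arrays and was not tested. In the control clones KRT18 and LGALS4 rose and KRT8, EPCAM and CDX1 fell after 5-aza-dC, and LGALS4 rose in the knockdown clones. Of 13 markers of fibroblasts, blood cells and endothelial cells, 8 were tested. Of these, 6 rose after 5-aza-dC in the control clones, 2 rose in the knockdown clones, and the endothelial cadherin CDH5 fell in the control clones. Over all genes 20.2% rose and 22.2% fell in the control clones, and 9.28% rose in the knockdown clones. PTPRC is 1 of the 6 on its brightest probe, at 1.56. Its second tested probe gave -0.74 in the control and -0.84 in the knockdown clones (adjusted p = 0.0142 and 0.0246 by limma). That probe was above background on 3 arrays, all untreated, so its entry depended on a high untreated signal. DCN, PDGFRB and PECAM1 were above background on treated arrays only, so their entry into the test depended on a high treated signal. DCN and PECAM1 are among the 6 called in the control clones, and their rise is given as a description. The entry of LGALS4 depended on a high treated signal too, since it was above background on all treated arrays and on only 1 untreated array. Its rise is given as a description. The summed blood signal was 6.64 to 7.32 in the untreated clones, 8.98 to 9.04 in the treated control clones and 7.65 to 7.95 in the treated knockdown clones. Summed fibroblast signals were 8.43 to 8.83 untreated and 9.34 to 9.82 treated, and summed endothelial signals were 6.56 to 6.84 and 7.59 to 8.16. COL1A2, COL3A1, LUM, CD3E and HBB stayed under the detection filter. The part of these changes in the results below was not tested. All samples are clones of HCT116, and bulk RNA does not tell a change in some of the cells from a change in all of them.

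Promoter sequence is shown for 4 of the target genes, taken from RefSeq windows of 300 bases on GRCh38.p14 that run from 250 bases before to 50 bases after a transcription start; probe positions given elsewhere are those of the files and refer to hg19. Windows were found for 30 of the 36 genes, 43 windows in all; GADD45A, PHLDA3, TP53INP1, TNFRSF10A, TNFRSF10B and RRM2B had none. The p53 consensus decamer, a palindrome that reads the same on both strands, was present in 8 of the 43 windows (18.6%) and in 6.63% of all 35116 windows, and 2 copies with at most 13 bases between them were present in 1 of the 43 windows and in 0.0285% of all windows. The single window with 2 copies at this spacing belongs to DDB2, shown first because it holds the complete site. FAS is shown next because it had the highest called rise after 5-aza-dC in the control clones, and its window holds 1 copy. A window of ACTA2 (chr10:88991288-88991587, minus strand, not shown) also holds 2 copies, farther apart. It overlaps the FAS window and includes the decamer marked there, which is therefore counted for ACTA2 and for FAS. In the DDB2 and FAS windows, the capitals mark the decamers.
DDB2 (chr11:47214724-47215023, plus strand): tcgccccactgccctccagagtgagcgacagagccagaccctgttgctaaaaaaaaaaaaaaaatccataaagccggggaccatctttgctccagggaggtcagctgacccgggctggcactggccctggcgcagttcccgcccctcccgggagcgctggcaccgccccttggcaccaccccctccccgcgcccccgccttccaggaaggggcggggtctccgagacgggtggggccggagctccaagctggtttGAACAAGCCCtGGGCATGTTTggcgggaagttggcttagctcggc
FAS (chr10:88991181-88991480, plus strand): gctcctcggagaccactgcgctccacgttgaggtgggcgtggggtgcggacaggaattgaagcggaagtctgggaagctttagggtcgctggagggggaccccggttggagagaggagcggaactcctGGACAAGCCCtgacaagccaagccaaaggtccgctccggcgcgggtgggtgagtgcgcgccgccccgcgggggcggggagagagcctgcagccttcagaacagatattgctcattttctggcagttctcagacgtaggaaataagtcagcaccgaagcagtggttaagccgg
The windows of CDKN1A and TP53I3 are shown because these genes moved in opposite directions in the treated control clones. Neither window holds a decamer, and here the capitals mark CpG dinucleotides, the sites that DNA methyltransferases methylate. The CDKN1A window has 29 CpGs and the TP53I3 window has 9, against a median of 24.0 over the 43 windows and of 14.0 over all windows.
CDKN1A (chr6:36678464-36678763, plus strand): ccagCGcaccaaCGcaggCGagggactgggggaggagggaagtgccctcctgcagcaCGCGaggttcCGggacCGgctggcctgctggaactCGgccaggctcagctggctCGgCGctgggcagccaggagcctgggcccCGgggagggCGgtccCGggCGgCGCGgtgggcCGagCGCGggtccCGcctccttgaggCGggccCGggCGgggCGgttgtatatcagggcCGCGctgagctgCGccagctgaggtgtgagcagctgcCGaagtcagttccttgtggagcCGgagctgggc
TP53I3 (chr2:24084785-24085084, minus strand): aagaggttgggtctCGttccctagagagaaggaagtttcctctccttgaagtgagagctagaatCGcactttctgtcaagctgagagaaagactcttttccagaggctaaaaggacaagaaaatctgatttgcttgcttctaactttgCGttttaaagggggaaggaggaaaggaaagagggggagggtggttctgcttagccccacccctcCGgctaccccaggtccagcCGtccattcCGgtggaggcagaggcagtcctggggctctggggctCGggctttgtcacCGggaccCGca
A match to a consensus in these windows describes the letters only, and p53 sites outside them were not searched.

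The p53 target genes had a small median response to 5-aza-dC, above 0 in every clone. Over the 35 tested genes the response, treated minus untreated array of the same clone, had a median of 0.19 for CONT1 and 0.38 for CONT2, and of 0.35 for TET1-KD1 and 0.30 for TET1-KD2, whereas the median of all 20553 tested genes was -0.05, -0.05, -0.05 and -0.07. Signal was higher after treatment for 22, 25, 29 and 25 of the 35 genes in these clones, against 47.4%, 47.6%, 45.1% and 44.8% of all genes. In all 4 clones together, 15 of the 35 genes (42.9%) were higher, against 23.4% of all genes, and 1 of 35, TRIAP1, was lower, against 29% of all genes. The control clones' part of this depended on the scaling. When every array was first mapped onto the mean spike-in curve of the earlier slide and then scaled by percentile, the median control response of the target genes was -0.24, that of all genes was -0.33, and 8 target genes were higher in all 4 clones, against 19.8% of all genes. The control difference of 10 of the 35 genes then changed sign (BAX, BTG2, DDB2, FDXR, GDF15, PERP, PLK2, PMAIP1, RPS27L and TNFRSF10B). FAS was then the single target gene called higher in the control clones, and 7 were called lower, against 15.1% and 33.6% of all genes. The 7 were CDKN1A, TRIAP1, XPC, BBC3 (-0.85), TNFRSF10B (-0.56), CCNG1 (-0.84) and APAF1 (-0.91).

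**Figure D1:**
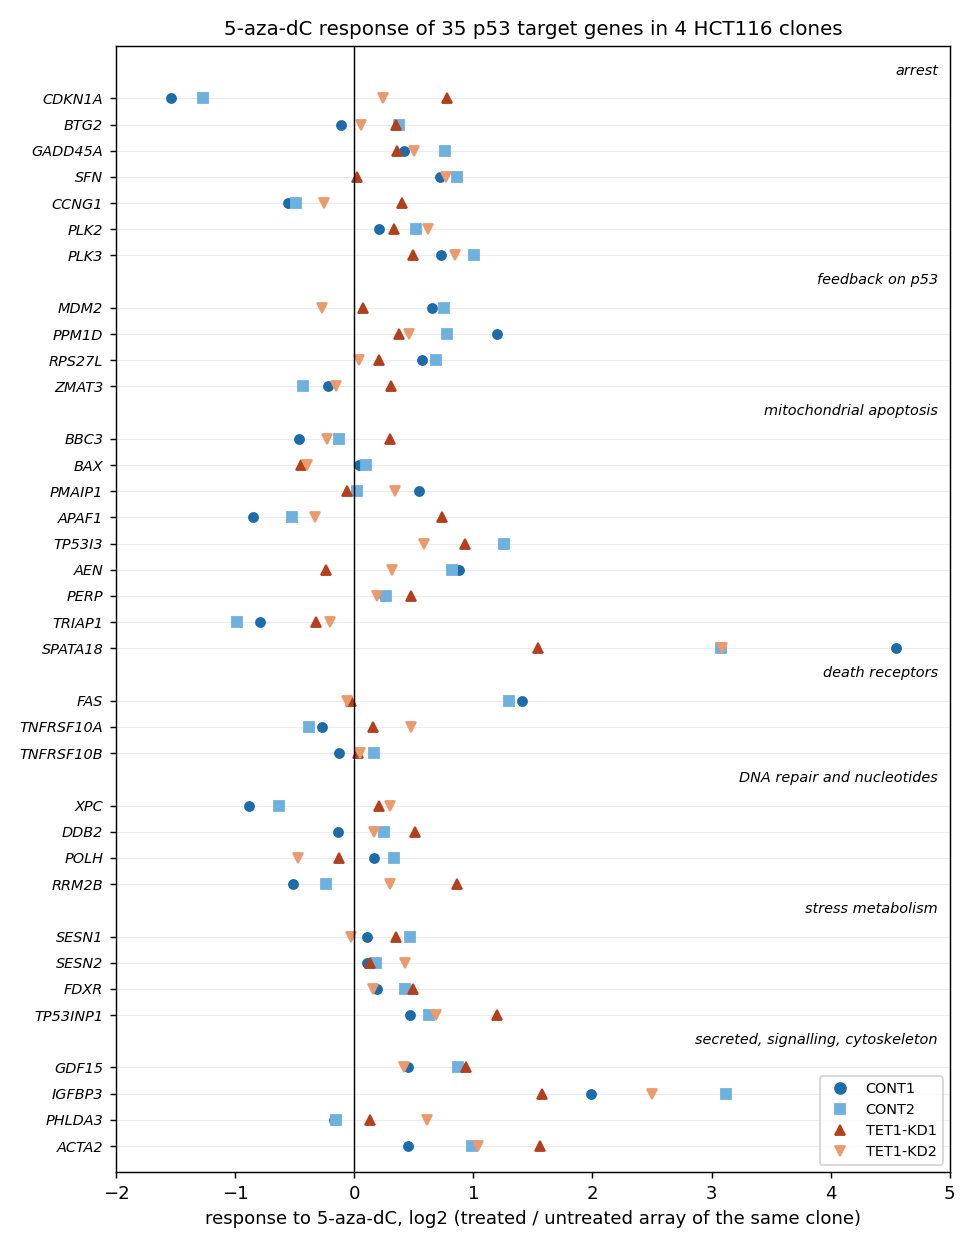
Each row is 1 p53 target gene, grouped by role, and each symbol is the log2 response of 1 clone (blue, control clones; orange, TET1 knockdown clones). CDKN1A lies at -1.54 and -1.27 in the control clones and at 0.78 and 0.24 in the knockdown clones, whereas TP53I3, TP53INP1 and ACTA2 lie above 0 in all 4.

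In the control clones, 7 of the 35 genes passed the test upward (FAS, TP53I3, PPM1D, PLK3, AEN, MDM2 and RPS27L) and 3 passed it downward (CDKN1A, TRIAP1 and XPC). Over all genes 20.2% passed upward, 22.2% downward and 42.5% in either direction, and the difference between these shares and those of the target genes was not tested. The test was limma over all 8 arrays with Benjamini-Hochberg adjustment over all probes at an adjusted p below 0.05. Without adjustment, 10 target genes were higher and 3 lower at p below 0.05, against 24.5% and 27.3% of all genes. With clone as a block, which pairs the treated and untreated array of a clone, 11 target genes were called higher, SFN, GADD45A, IGFBP3 and SPATA18 being added, and the same 3 were called lower, against 24.6% and 26.4% of all genes. SPATA18 was below background in the untreated control clones and entered the test through the arrays on which it was high, so its call is given as a description. When each of the 4 control arrays was left out in turn, CDKN1A and FAS kept their calls in all 4 fits, TP53I3 and PPM1D in 2, XPC in 1, and PLK3, AEN, MDM2, RPS27L and TRIAP1 in 0.

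TP53INP1 was, in the knockdown clones, the single target gene that passed the test upward and none passed it downward; over all genes 9.28% passed upward, 3% downward and 12.3% in either direction. At an unadjusted p below 0.05, 5 target genes were higher and 0 lower, against 15.6% and 12.9% of all genes. With clone as a block, 4 were called higher and 0 lower, against 10.9% and 4.38% of all genes. They were TP53INP1, TP53I3 and ACTA2, which were above background on all arrays, and IGFBP3, which was above background on 1 of the 4 knockdown arrays. The median difference was 0.32 for the target genes and -0.07 for all genes, within 1 slide.

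Untreated knockdown and control clones did not differ in any target gene by limma (0 higher, 0 lower; 1 higher and 0 lower at an unadjusted p below 0.05, which was FAS, against 2.96% and 5.13% of all genes). Over all genes 0.00973% passed in each direction and 0.0195% in either. The median difference over the target genes was 0.10, and over all genes 0.01.

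Among the 35 target genes, the difference between the kinds of clone in the 5-aza-dC response, knockdown minus control, passed the test for CDKN1A alone, upward. Over all genes 4.1% passed upward, 1.75% downward and 5.85% in either direction. With clone as a block CDKN1A kept its call and FAS was called as well, downward at -1.40 (SE 0.169, adjusted p = 0.0396 by limma), against 3.61% of all genes upward and 1.75% downward in that fit. By direction alone, 5 of the 35 genes (14.3%) were lower in both control clones and higher in both knockdown clones (CDKN1A, PHLDA3, RRM2B, TNFRSF10A and XPC), against 6.13% of all genes. Another 3 of 35 (8.57%) were higher in both control clones and lower in both knockdown clones (BAX, FAS and POLH), against 9.55% of all genes.

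**Figure D2:**
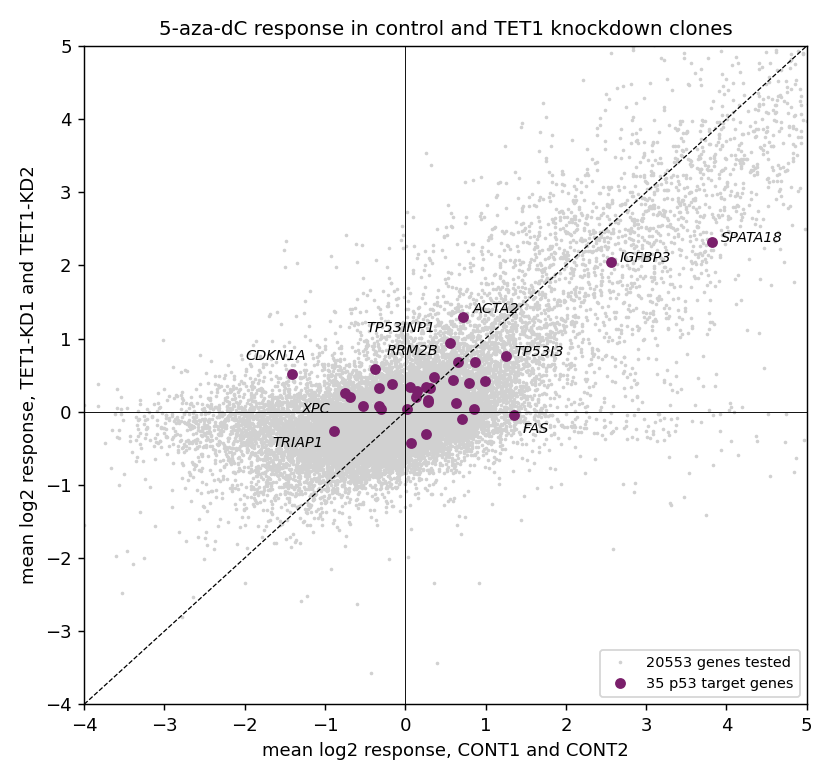
Mean log2 response of the control clones (x axis) against that of the knockdown clones (y axis) for 35 p53 target genes (purple) over the 20553 genes tested (gray); the dashed line marks equal responses and genes outside the frame are not shown. CDKN1A stands at -1.41 and 0.51, and FAS at 1.35 and -0.05.

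The calls in each role group below stand against 20.2% of all genes rising and 22.2% falling in the control clones. In the knockdown clones 9.28% of all genes rose and 3% fell. Among the genes of cell cycle arrest, CDKN1A fell and PLK3 rose in the control clones, and none of the 7 passed the test in the knockdown clones, where all 7 had a difference above 0 (median 0.43). CDKN1A encodes p21, the inhibitor of cyclin-dependent kinases through which p53 stops the cell cycle. Its probe (chr6:36652178-36652237, hg19) read 10.31 in CONT1 and 10.11 in CONT2 untreated, and 8.76 and 8.84 after 5-aza-dC. In TET1-KD1 and TET1-KD2 it read 10.11 and 10.20 untreated, and 10.89 and 10.44 after 5-aza-dC. The 4 untreated clones thus lay within a narrow band, the treated control clones lay below it and the treated knockdown clones above it, with no overlap. In the control clones CDKN1A fell by 1.41 (SE 0.193, a 2.65-fold drop, adjusted p = 0.00256 by limma). Its difference of 0.51 in the knockdown clones did not pass the test (SE 0.193, adjusted p = 0.148 by limma). The responses differed by 1.92 (SE 0.272, 3.77-fold, adjusted p = 0.0185 by limma). After the spike-in interpolation the fall was -1.37 and the difference 1.83, both past the threshold, whereas after subtracting the trend of each clone's response on probe GC content the difference was 1.46 and no longer passed (adjusted p = 0.0525 by limma). Leaving out single arrays, the difference passed in 4 of 8 fits; it was lost without untreated CONT1 (1.82, adjusted p = 0.0945 by limma), untreated CONT2 (2.02, 0.0724), untreated TET1-KD1 (1.87, 0.0645) or treated CONT2 (1.95, 0.05003).

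PLK3, a polo-like kinase of the stress response, read 12.55 and 12.44 in the untreated and 13.29 and 13.45 in the treated control clones, a rise of 0.87 (SE 0.214, adjusted p = 0.0201 by limma), which became 0.25 and lost its call after the spike-in interpolation. The knockdown clones read 12.83 and 12.29 untreated and 13.32 and 13.15 treated. CCNG1, the p53-induced cyclin G1, read 11.11 and 11.03 in the untreated and 10.55 and 10.54 in the treated control clones (adjusted p = 0.0987 by limma). Its second probe passed the test at -0.63 (adjusted p = 0.034 by limma). CCNG1 in the knockdown clones read 10.88 and 10.92 untreated and 11.29 and 10.68 treated, so the treated clones lay on either side of the untreated ones. BTG2, GADD45A, SFN and PLK2, which also restrain the cell cycle or act in the stress response, had differences of 0.13 to 0.79 in the control clones and of 0.21 to 0.47 in the knockdown clones, none past the test without the block.

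Of the 4 genes of feedback on p53, MDM2, PPM1D and RPS27L rose in the control clones, against 20.2% of all genes. None of the 4 was called in the knockdown clones, where 9.28% of all genes rose. MDM2, the ligase that degrades p53, read 9.82 and 9.85 in the untreated and 10.47 and 10.60 in the treated control clones on its brightest probe (chr12:69238891-69238950). The rise was 0.70 (SE 0.209, adjusted p = 0.0378 by limma). In TET1-KD1 and TET1-KD2 the same probe read 10.32 and 10.13 untreated and 10.39 and 9.86 treated, a range that overlaps between the treatments.

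The 4 MDM2 probes gave different sizes in the control clones. The probe at chr12:69233570-69233629 rose by 1.03 (adjusted p = 0.00491 by limma), and the one at chr12:69236905-69236964 differed by 0.12 (adjusted p = 0.574). The probe at chr12:69233822-69233881, whose GC content is 28.3%, read 7.22 and 7.18 untreated and 9.70 and 9.61 treated, a rise of 2.46 (SE 0.156, adjusted p = 0.000173 by limma). The knockdown clones read 7.77 and 7.51 untreated and 7.90 and 8.01 treated. For this probe the responses of the kinds of clone differed by -2.15 (SE 0.22, adjusted p = 0.01 by limma), and no other MDM2 probe passed that test. Whether the probes report different transcripts was not tested.

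**Figure D3:**
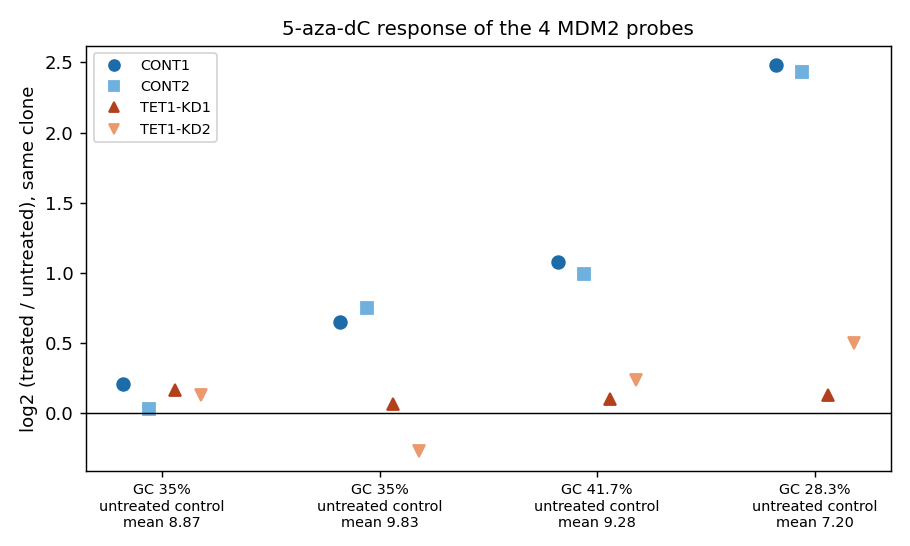
Log2 response to 5-aza-dC of the 4 MDM2 probes in each clone, ordered by the mean response of the control clones, with each probe's GC content and mean untreated control signal under the axis. The control clones range from 0.03 to 2.48 over the probes, and the knockdown clones from -0.27 to 0.50.

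This spread over probes was wider across the slides than within the first one. Of the 11 target genes with several tested probes (25 probes), 4 had probes of opposite sign in the control clones (AEN, BAX, POLH and RRM2B) and 1 in the knockdown clones (MDM2, at -0.10 on the brightest probe and 0.15 to 0.31 on the others). The second probes of BAX and POLH gave -0.53 and -0.56 in the control clones, neither called. The range of the probes' differences within a gene had a median of 0.6 and reached 2.34 in the control clones, and had a median of 0.05 and reached 0.41 in the knockdown clones. The part of the slide in this was not tested.

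PPM1D, a phosphatase that switches the p53 response off, read 10.62 and 10.94 in the untreated and 11.82 and 11.72 in the treated control clones, a rise of 0.99 (SE 0.203, adjusted p = 0.0108 by limma). RPS27L, a ribosomal protein S27 relative that binds MDM2, read 14.74 and 14.61 untreated and 15.31 and 15.30 treated, a rise of 0.63 (SE 0.195, adjusted p = 0.0429 by limma). Both were also higher after treatment in each knockdown clone, PPM1D at 11.19 and 10.84 untreated and 11.57 and 11.30 treated, and RPS27L at 15.08 and 14.83 untreated and 15.29 and 14.86 treated. The spike-in interpolation ended the calls of MDM2, PPM1D and RPS27L, with differences of 0.43, 0.54 and -0.055, so that RPS27L turned its sign. MDM2 was called in 9 of 14 alternatives, with differences of 0.43 to 1.08, and lost its call after the GC trend as well (0.45, adjusted p = 0.119 by limma). The second PPM1D probe gave 0.59 in the control clones and missed the threshold (adjusted p = 0.0572 by limma). ZMAT3, an RNA-binding zinc finger protein, differed by -0.32 in the control and 0.08 in the knockdown clones, neither past the test.

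Of the 9 genes of mitochondrial apoptosis, TP53I3 and AEN rose and TRIAP1 fell in the control clones, and none was called in the knockdown clones without the block. TP53I3, a quinone oxidoreductase linked to reactive oxygen species, read 11.70 and 11.82 untreated and 12.95 and 13.08 treated in the control clones (probe at chr2:24300504-24300563, hg19). It rose by 1.25 (SE 0.256, 2.38-fold, adjusted p = 0.0106 by limma). In the knockdown clones it read 11.01 and 11.69 untreated and 11.94 and 12.28 treated, so the treated clones lay above the untreated ones without overlap. The second TP53I3 probe rose by 1.20 in the control clones, within 0.05 of the first. The rise in the control clones after the spike-in interpolation was 0.66 and no longer passed (adjusted p = 0.0806 by limma).

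AEN, an exonuclease that acts in apoptosis, read 10.30 and 10.50 untreated and 11.18 and 11.32 treated in the control clones, a rise of 0.85 (SE 0.274, adjusted p = 0.0484 by limma), which was called in 8 of 14 alternatives. It became 0.46 after the spike-in interpolation, 0.59 after the GC trend (adjusted p = 0.127 by limma) and 0.21 as the mean of both probes (adjusted p = 0.536 by limma), all without a call. The second probe differed by -0.43 (adjusted p = 0.221 by limma), and the knockdown clones read 11.18 and 10.39 untreated and 10.94 and 10.71 treated. TRIAP1, a small mitochondrial protein that protects cells from apoptosis, read 11.62 and 11.64 untreated and 10.82 and 10.66 treated in the control clones. It fell by 0.89 (SE 0.222, adjusted p = 0.0213 by limma) and by 1.25 after the spike-in interpolation, where it kept its call. TRIAP1 in the knockdown clones read 12.28 and 11.79 untreated and 11.96 and 11.59 treated, with overlap.

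APAF1, the scaffold of the apoptosome, read 6.45 and 6.49 in the untreated and 5.60 and 5.97 in the treated control clones (adjusted p = 0.113 by limma), and 6.21, 6.42, 6.95 and 6.09 in untreated TET1-KD1 and TET1-KD2 and the same clones treated. SPATA18, which takes part in the clearance of damaged mitochondria, was not well above background in either untreated control clone, at 2.16 and 1.97, and read 6.72 and 5.05 after treatment. Against the detection limit this is at least 2.96-fold higher, with an adjusted p of 0.0731 by limma, where the limit on each untreated array is the lowest signal among probes well above background. SPATA18 in the knockdown clones read 6.37 and 2.36 untreated and 7.91 and 5.45 treated, so it was above the detection limit in all 4 treated clones. The genes of the BCL-2 family, BAX, BBC3 (PUMA) and PMAIP1 (NOXA), which promote the opening of the mitochondrial outer membrane, had differences of 0.07, -0.30 and 0.28 in the control clones and of -0.43, 0.03 and 0.14 in the knockdown clones, none past the test. PERP, a membrane protein of desmosomes, differed by 0.26 and 0.34.

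Of the 4 death receptors, FAS rose in the control clones and none was called in the knockdown clones. FAS, the receptor of FAS ligand that starts extrinsic apoptosis, read 8.96 and 9.08 untreated and 10.37 and 10.38 treated in the control clones on its brightest probe (chr10:90774545-90774604, hg19). It rose by 1.35 (SE 0.248, 2.55-fold, adjusted p = 0.00723 by limma), and by 1.11 after the spike-in interpolation. In TET1-KD1 and TET1-KD2 it read 10.05 and 9.54 untreated and 10.01 and 9.48 treated. The untreated knockdown clones thus lay above the untreated control clones and below the treated ones, and their own treated and untreated signals differed by at most 0.06. The untreated difference was 0.77 with an adjusted p of 0.541 by limma. The other 2 FAS probes differed by 0.54 and 0.49 in the control clones, neither called, and by -0.06 and -0.01 in the knockdown clones. TNFRSF10A and TNFRSF10B, the TRAIL receptors, differed by -0.33 and 0.02 in the control clones and by 0.32 and 0.04 in the knockdown clones, none past the test. EDA2R read 2.00 to 2.40 on its first probe in the untreated clones and 3.48 to 5.78 in the treated ones, too close to background for a test. Its second probe ran the other way in TET1-KD2, at 5.69 untreated and 2.34 treated. In CONT1, CONT2 and TET1-KD1 that probe read 2.24, 2.03 and 2.06 untreated and 2.43, 5.04 and 2.73 treated.

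Of the 4 genes of DNA repair and nucleotide supply, XPC fell in the control clones and none was called in the knockdown clones. XPC, which recognizes lesions in nucleotide excision repair, read 9.50 and 9.28 untreated and 8.62 and 8.65 treated in the control clones. It fell by 0.76 (SE 0.166, adjusted p = 0.0136 by limma), while the spike-in with an untreated control signal of 9.37 read -0.68 on the same arrays. After the spike-in interpolation, which is followed by a new percentile scaling, XPC was at -0.68 and kept its call. In the knockdown clones XPC read 9.45 and 9.22 untreated and 9.67 and 9.51 treated.

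DDB2, the other damage sensor of this pathway, whose promoter holds the complete p53 site, differed by 0.06 in the control and 0.34 in the knockdown clones, neither past the test, and its second probe gave 0.17 and 0.30. RRM2B, the p53-inducible subunit of ribonucleotide reductase, read 9.44 and 9.48 untreated and 8.92 and 9.25 treated in the control clones, and 9.90 and 9.44 untreated and 10.76 and 9.74 treated in the knockdown clones. Its second probe ran the other way in the control clones at 0.84 (adjusted p = 0.0638 by limma). POLH, a polymerase that copies past lesions, differed by 0.25 and -0.30.

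**Figure D4:**
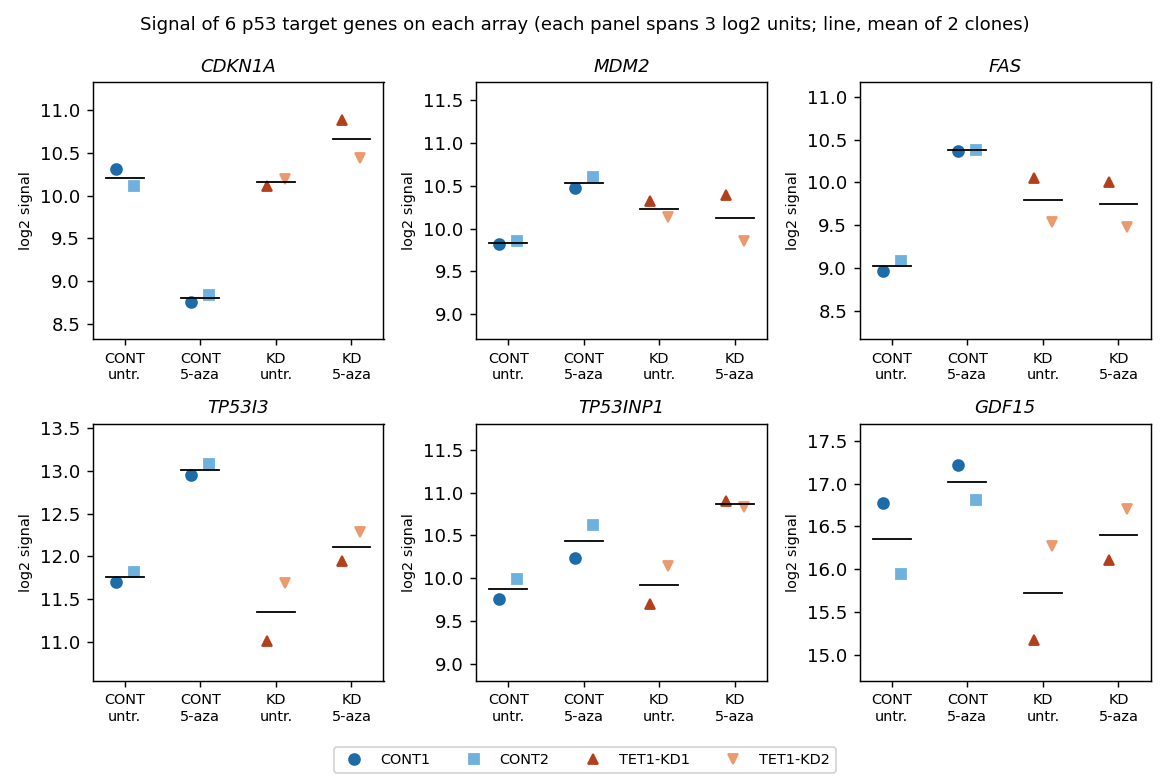
Log2 signal of 6 target genes on each array, with 1 symbol per clone and a line at the mean of 2 clones; every panel spans 3 log2 units. The treated control clones lie apart from the untreated ones for all 6 genes, for GDF15 by only 16.81 against 16.77, and the treated knockdown clones lie apart for CDKN1A, TP53INP1 and TP53I3.

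Of the 4 genes of stress metabolism, TP53INP1 rose in the knockdown clones and none was called in the control clones. TP53INP1, a nuclear protein that promotes p53-dependent apoptosis and autophagy, read 9.70 and 10.14 in untreated and 10.90 and 10.83 in treated TET1-KD1 and TET1-KD2. The rise was 0.95 (SE 0.222, 1.93-fold, adjusted p = 0.0444 by limma). In CONT1 and CONT2 it read 9.76 and 9.99 untreated and 10.24 and 10.62 treated (adjusted p = 0.0905 by limma). Both kinds of clone were thus higher after treatment without overlap, and the difference between their responses was 0.39 (adjusted p = 0.489 by limma). A second TP53INP1 probe passed the test in both, at 0.87 in the control clones (adjusted p = 0.0106) and 1.15 in the knockdown clones (adjusted p = 0.0103). The call on the brightest probe was near the threshold: over the first slide alone the adjusted p was 0.0576 by limma at the same difference, and leaving out any 1 of the 4 knockdown arrays ended the call, with differences of 0.72 to 1.17. SESN1 and SESN2, the sestrins that restrain mTORC1, and FDXR, the mitochondrial ferredoxin reductase, differed by 0.14 to 0.31 in the control clones and by 0.16 to 0.33 in the knockdown clones, none past the test.

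The 4 genes of secreted factors, growth signaling and cytoskeleton had the highest median difference of the 7 role groups in the knockdown clones (0.99), with 0 called without the block. That median takes in IGFBP3 at 2.04, which was above background on only 1 of the 4 knockdown arrays. The differences of PHLDA3, GDF15 and ACTA2 were 0.37, 0.68 and 1.30. GDF15, a secreted stress cytokine, read 16.77 and 15.94 untreated and 17.22 and 16.81 treated in the control clones, and 15.17 and 16.27 untreated and 16.11 and 16.70 treated in the knockdown clones. It was higher after treatment in each clone, by 0.42 to 0.94, but the clones differed by as much before treatment and neither comparison passed (adjusted p = 0.285 and 0.39 by limma). ACTA2, smooth muscle actin, read 8.36 and 7.98 untreated and 9.92 and 9.02 treated in the knockdown clones (adjusted p = 0.055 by limma; 0.0349 with clone as a block). In the control clones it read 8.86 and 8.45 untreated and 9.31 and 9.44 treated. Its probe lies at chr10:90697899-90697958 (hg19), on the same chromosome arm as FAS, whose difference in the knockdown clones was -0.05.

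IGFBP3, which binds insulin-like growth factors, read 5.62 and 4.59 untreated and 7.61 and 7.71 treated in the control clones (adjusted p = 0.085 by limma; 0.0104 with clone as a block). In the knockdown clones it read 2.11 and 3.98 untreated, neither well above background, and 3.69 and 6.48 treated, of which only the latter clone was above background. PHLDA3, an inhibitor of AKT, differed by -0.16 and 0.37, neither past the test.

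**Figure D5:**
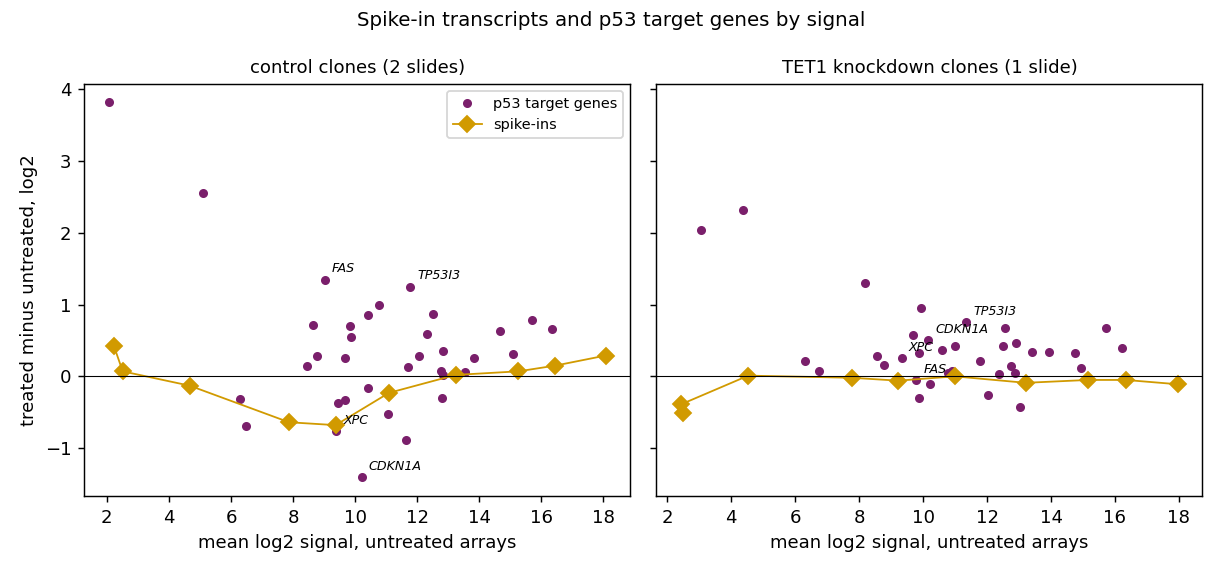
Treated minus untreated log2 difference (y axis) against the untreated log2 signal (x axis) for the 35 target genes (purple) and 10 spike-ins (gold, joined by a line), in control clones, whose treated arrays lie on the second slide, and in knockdown clones on 1 slide. The spike-in line dips to -0.68 at a signal of 9.37 in the control clones, near XPC and well above CDKN1A at -1.41, and its 8 brightest spike-ins stay between -0.11 and 0.01 in the knockdown clones.

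The rest of the pathway was read through 3 lists. Of 18 tested regulators of p53, 1 rose (EP300) and 6 fell (MDM4, CHEK1, USP7, KAT5, RFWD2 and BRD7) in the control clones, and 0 were called in the knockdown clones, where 6 were lower and 0 higher at an unadjusted p below 0.05. Over all genes 20.2% rose and 22.2% fell in the control clones, and within the knockdown clones 15.6% were higher and 12.9% lower without adjustment. Probes of 1 gene disagreed here too: a second MDM4 probe gave 0.82 (adjusted p = 0.0834 by limma) against -0.82 on the brightest one, BRD7's other probe gave 0.40, and a HIPK2 probe rose by 3.40 (adjusted p = 0.000445 by limma) where the brightest differed by 0.06. CHEK2 was not called on its brightest probe (-0.52, adjusted p = 0.0866 by limma). Of its other probes, 1 at -0.47 was not called (adjusted p = 0.0594 by limma). The rest were called lower, at -1.13 to -1.53 (adjusted p = 0.00446 to 0.0134 by limma). The second CDKN2A probe was called lower at -0.70 (adjusted p = 0.017 by limma), where the brightest differed by 0.19. USP7, a deubiquitinase that acts on MDM2 and was picked after its values were seen for the largest fall of the list, read 7.14 and 7.40 untreated and 5.62 and 5.11 treated in the control clones (adjusted p = 0.00253 by limma), and 7.60 and 7.58 untreated and 7.06 and 6.51 treated in the knockdown clones (adjusted p = 0.105 by limma). Treated clones of both kinds lay below untreated ones. The list's median difference was -0.10 in the control and -0.34 in the knockdown clones.

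Of 24 tested further p53 target genes, 10 rose and 3 fell in the control clones, against 20.2% and 22.2% of all genes, and 2 rose in the knockdown clones, against 9.28%, with medians of 0.52 and 0.26. FBXO22 is 1 of the 10 on its brightest probe, at 0.67, whereas its second probe fell by 2.91 (adjusted p = 0.000378 by limma). The 2 genes called in the knockdown clones were GLS2, a mitochondrial glutaminase, and TP53TG1, a long noncoding RNA. Both are also among the 10 in the control clones. Both passed the detection filter through the treated arrays alone, on all 4 of which they were above background. They therefore had to differ, and their calls and values are given as a description. GLS2 was not well above background in any untreated clone, at 2.18 to 2.57, and read 6.88 and 6.58 in the treated control and 5.66 and 6.82 in the treated knockdown clones. That is at least 5.32-fold higher in the control clones and at least 3.57-fold higher in the knockdown clones. TP53TG1 likewise read 2.01 to 2.62 untreated, 7.58 and 6.57 in the treated control and 6.51 and 6.49 in the treated knockdown clones, at least 6.75-fold and at least 4.28-fold higher. The second TP53TG1 probe was above background on 1 array and was not tested.

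Of 24 tested genes that p53 lowers through p21 and the DREAM repressor complex, most of them genes of the cell division program, 1 rose (CENPF) and 6 fell (CDC20, FOXM1, PLK1, MYBL2, CHEK1 and E2F1) in the control clones, and 2 fell (FOXM1 and E2F1) in the knockdown clones. These counts stand against 20.2% rising and 22.2% falling over all genes in the control clones, and 3% falling in the knockdown clones. The second CENPF probe differed by -0.03 and was not called. The median difference was -0.33 in the control and -0.27 in the knockdown clones. E2F1, a transcription factor of S phase entry, read 9.83 and 9.95 untreated and 9.44 and 9.24 treated in the control clones, and 10.23 and 10.22 untreated and 9.42 and 9.45 treated in the knockdown clones, without overlap in either. FOXM1, which drives genes of mitosis, read 11.17 and 11.27, then 10.73 and 10.62 in the control clones, and 11.36 and 11.32, then 10.77 and 10.44 in the knockdown clones.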

How the data were processed

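Total RNA of 8 samples, 4 HCT116 clones each untreated and treated with 5-aza-dC, was hybridized to one-color Agilent SurePrint G3 arrays. The authors deposited, per array, the spot intensity values written by Agilent Feature Extraction 10.7.3.1, background-subtracted but not normalized between arrays, with probe positions on hg19. The deposited series matrix holds the same intensity values rounded, with array medians of 21.2 to 33.8, and served as an alternative. The paper names t tests with Benjamini-Hochberg correction in GeneSpring; its normalization is not given in the sources used here.

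Processed intensities of the 58717 spots that are not controls were divided by each array's 75th percentile, multiplied by the geometric mean of these percentiles, set to at least 1 (0 values were lower) and log2-transformed. Spots flagged as non-uniform or as outliers were left out, no spot was saturated, and probes with several spots were averaged. A probe's spots had to be well above background in a share of 0.5 or more for the probe to count as detected. This left 50543 probes with a value on all arrays and 27286 tested probes of 20553 gene names. Each gene was read from its brightest tested probe over the 8 arrays, and positions refer to probes. One fit over 8 arrays with 4 condition means was made with limma 3.58.1 in R 4.3.3, and p-values were adjusted (Benjamini-Hochberg) over all tested probes at 0.05. The number of arrays, 2 per condition, limits the precision.

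Treated and untreated arrays of the same number come from the same clone per the labels; their deviations from the condition means correlated at 0.198 in control and 0.476 in knockdown clones, and a fit with clone as a block was the alternative. Control and knockdown clones of the same number share the number only. On simulated arrays with 400 of 27286 probes moved by 2 on the log2 scale in the treated control arrays, 65.5% were recovered in the control comparison with 3.68% false calls, and 39% in the difference of responses with 3.11%. These rates do not carry over to the results above. The simulated arrays had independent noise and no difference between slides, whereas 42.5% of all genes were called in the real control comparison. The move of 2 also exceeds the largest called control difference of a target gene's brightest probe (CDKN1A, -1.41). Values on every array are printed for target genes called in any comparison, for the 6 highest and 6 lowest differences in the control clones and for CDKN1A, MDM2 and GDF15. Other probes of a target gene are named where call or direction differs, and of the pathway and marker lists for some genes, chosen after their values were seen. The target genes, the pathway lists and the marker lists were chosen with earlier results of these data known, and 1 gene each of the regulator and the marker lists is not reported here. FOXM1, E2F1, GLS2 and TP53TG1 were named as the list members called in the knockdown clones. Promoter windows are from RefSeq (GRCh38.p14) and were matched by symbol. Figures were drawn with matplotlib.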

Additional observations from a re-analysis of the deposited data

Results flagged for a closer look

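The difference between knockdown and control clones in the 5-aza-dC response passed the limma test for 2 probes of the 36 p53 target genes chosen by name. For CDKN1A it was 1.92, knockdown minus control, with a lower signal after treatment in both control clones and a higher one in both knockdown clones. For the MDM2 probe at chr12:69233822-69233881 it was -2.15, with responses of 2.48 and 2.43 in the control clones against 0.13 and 0.50 in the knockdown clones. This MDM2 probe kept its call in all 11 alternatives run on single probes and in 6 of the 8 fits that left out an array. Probes of the pathway lists passed the same test. TGFA, a further p53 target gene, did so on its brightest probe (1.25, adjusted p = 0.0316 by limma). Other probes of FBXO22 (2.54, 0.0155) and CYFIP2 (1.44, 0.0289) did so too. A HIPK2 probe (-4.30, adjusted p = 0.00856 by limma) and the second PLK1 probe (1.27, 0.0281) passed as well. Both treated control arrays lie on the second slide, so kind of clone and slide cannot be told apart in any of these values. Groups of 2 arrays were too small to look for single arrays that stand apart.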

How the results depend on the processing

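The main counts were 7 target genes higher and 3 lower after 5-aza-dC in control clones, 1 and 0 in knockdown clones, 0 and 0 untreated, and 1 and 0 for the difference in response. In control clones the count higher was 1 after spike-in interpolation (7 lower), 2 at a minimum of 2-fold (1 lower), 4 without a filter on dim probes, 2 by the methods' t-test, and 11 (5 lower) with only the 4 arrays compared. Over all genes, 15.1% were called higher and 33.6% lower after spike-in interpolation. Leaving out single arrays, the count of target genes was 1 to 3 higher and 1 to 2 lower. In knockdown clones it was 3 with normexp, 2 with quantile normalization and 2 with an offset of 50, and 0 without a filter, with only probes above background on all 8 arrays, at 2-fold, with the 4 arrays alone, by the methods' t-test and over the first slide alone; leaving out arrays it was 0 to 1. The difference in response gave 2 (CDKN1A and XPC) with an offset of 50 and with probes above background on all 8 arrays, 0 after the GC trend, and 0 to 1 leaving out arrays. The untreated comparison stayed at 0 in every alternative run, including the replicate number as a replicate block (0 and 0), where same-numbered clones share only the number (r = -0.114). With the clone as a replicate block, which pairs arrays, 11 were higher in control and 4 in knockdown clones, and the difference had 1 lower. Among the genes called, RPS27L turned its direction after spike-in interpolation (-0.055); over all 35, 10 control differences turned there, and the median from 0.28 to -0.24. CDKN1A and FAS kept their calls in control clones in all 14 alternatives and all 4 fits that left out an array. TP53INP1 kept its call in 8 of 14 and in 0 of 4. Over all genes, the spike-in interpolation moved the median control response from -0.06 to -0.33 and the share of calls that were higher from 47.7% to 31%; quantile normalization moved that median to -0.16. In knockdown clones an offset, quantile normalization and normexp moved that share from 75.6% to 62.1%, 65.6% and 64.7%, and for the difference in response from 70% to 55%, 73.5% and 50.3%, with 85.2% after spike-in interpolation. The share of all genes called ranged over these alternatives down to 16% by the methods' t-test, 21.8% without a filter and 27.9% at 2-fold in control clones, and to 0%, 4.86% and 6.02% by the t-test, without a filter and with probes above background on all arrays in knockdown clones. For the difference it was 9.13% after spike-in interpolation, 3.44% with normexp and 1.62% without a filter. The cause of these shifts was not tested.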
